A study of Mus musculus with 12 samples.

Results

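Gm26917, CT010467.1, Gm42418 and AY036118 are 4 mouse genes of the GENCODE M21 annotation that lie side by side on chromosome 17, over and next to a copy of the 18S ribosomal RNA sequence. They were named because they overlap ribosomal RNA sequence, and matched to the count tables by Ensembl identifier without its version. All 4 of the 48526 genes in the tables were found, and 2 of them, Gm26917 and CT010467.1, received reads. Both passed the filter on low counts in each fit, and the other two did not. They were chosen by their share of the counts in all 12 libraries and their level in pulldown against input in each genotype. Those values are therefore given as a description, with no test.

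The libraries came from epithelial cells of the proximal small intestine of 4 female mice aged 3 months, released with EDTA for 50 minutes. The sample titles call them whole intestine epithelial cells. The 2 KAT2A/KAT2B DKO mice received tamoxifen at 100 mg/kg in ethanol and corn oil, injected into the peritoneum once a day for 4 days, to delete Kat2a and Kat2b, a pair of genes for lysine acetyltransferases. The 2 control mice received the ethanol and corn oil without tamoxifen, and cells were collected 2 days after the injections ended. Loss of the 2 genes and exposure to tamoxifen cannot be told apart in any comparison below. The Cre driver, the floxed alleles and the strain are not given in the sources used here. From each animal an input library was made, together with a pulldown with J2 and a pulldown with K1, antibodies that bind double-stranded RNA whatever its sequence. This gives 6 groups of 2 libraries. The study asked which RNAs are enriched by the antibodies differently in DKO and control.

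Ribosomal RNA is made in the nucleolus by RNA polymerase I as a long precursor. The precursor starts with the 5′ external transcribed spacer, followed by 18S rRNA and, after further spacers, by 5.8S and 28S rRNA. The spacers are cut away and degraded by the nuclear exosome and exonucleases. The mature 18S rRNA forms the core of the small ribosomal subunit. It folds on itself into many short helices, and the spacers, which are rich in G and C, fold strongly too. In most RNA libraries mature rRNA is removed before sequencing, as it was here.

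The 4 genes differ in how much of their sequence a read can be assigned to, and the sequences below mark the places that decide this. All coordinates are on GRCm38, with transcripts from GENCODE M21. Gm26917 (ENSMUSG00000097971.3, annotated as a lincRNA, an intergenic long non-coding RNA) spans 3329 bases of the plus strand at chr17:39843013-39846341. It has 2 transcripts, 3329 and 869 bases long, and shares no exonic base with another of the 4 genes. It ends 11 bases before the first base of the 18S sequence, on the strand of that sequence. Within 50000 bases of the locus lies 1 further annotated gene, CT010467.2, and its overlap with the 4 genes was not examined. The first line below is the stretch of Gm26917 with the longest uninterrupted helix predicted in it, 12 base pairs closed by a loop of 3 bases at chr17:39844521-39844587, with the arms in capitals. The second is the end of Gm26917 at chr17:39846282-39846341, and the third is the start of 18S at chr17:39846353-39846412, all on the plus strand.
Gm26917 helix: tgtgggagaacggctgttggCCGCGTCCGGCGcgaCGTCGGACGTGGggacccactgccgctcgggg
Gm26917 end: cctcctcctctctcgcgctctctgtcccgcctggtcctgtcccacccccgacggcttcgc
18S start: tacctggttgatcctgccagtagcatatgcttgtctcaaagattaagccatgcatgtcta

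CT010467.1 (ENSMUSG00000106106.2, annotated as rRNA) covers 2466 exonic bases at chr17:39846353-39848827, on the minus strand. Its transcript of 1849 bases, chr17:39846353-39848201, is the complement of the whole 18S sequence. Gm42418 (ENSMUSG00000098178.1, lincRNA) lies on the plus strand at chr17:39846958-39848788 and has 1831 bases, which run from inside the 18S sequence past its end. AY036118 (ENSMUSG00000105361.1, lincRNA) has 923 bases on the minus strand at chr17:39847113-39848035, all of them inside both CT010467.1 and Gm42418. The genes thus lie on top of each other on opposite strands. Of the bases of CT010467.1, 644 belong to none of the other members (26.1%), and 605 of these form the stretch chr17:39846353-39846957 at the start of 18S. Gm42418 has 9 such bases, the longest run being 5, and AY036118 has 0. The first line below shows the plus strand across the border at chr17:39846898-39847017. Capitals mark bases that only CT010467.1 holds among the members, and lower case marks those shared with Gm42418. The second shows Gm42418 leaving the 18S sequence at chr17:39848142-39848261, with 18S in capitals. The last 2 lines are the first bases of AY036118 on the minus strand and the same place, chr17:39847976-39848035, in Gm42418 on the plus strand.
CT010467.1 to Gm42418 border: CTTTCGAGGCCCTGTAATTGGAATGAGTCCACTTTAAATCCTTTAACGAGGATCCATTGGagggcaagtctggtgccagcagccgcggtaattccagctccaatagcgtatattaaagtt
Gm42418 at the 18S end: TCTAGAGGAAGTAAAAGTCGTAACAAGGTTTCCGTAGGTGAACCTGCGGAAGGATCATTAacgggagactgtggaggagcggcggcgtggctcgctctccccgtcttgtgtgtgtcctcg
AY036118 start: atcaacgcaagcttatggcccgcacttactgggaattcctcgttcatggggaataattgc
Gm42418 same place: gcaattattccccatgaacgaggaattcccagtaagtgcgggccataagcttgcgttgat

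**Figure D1:**
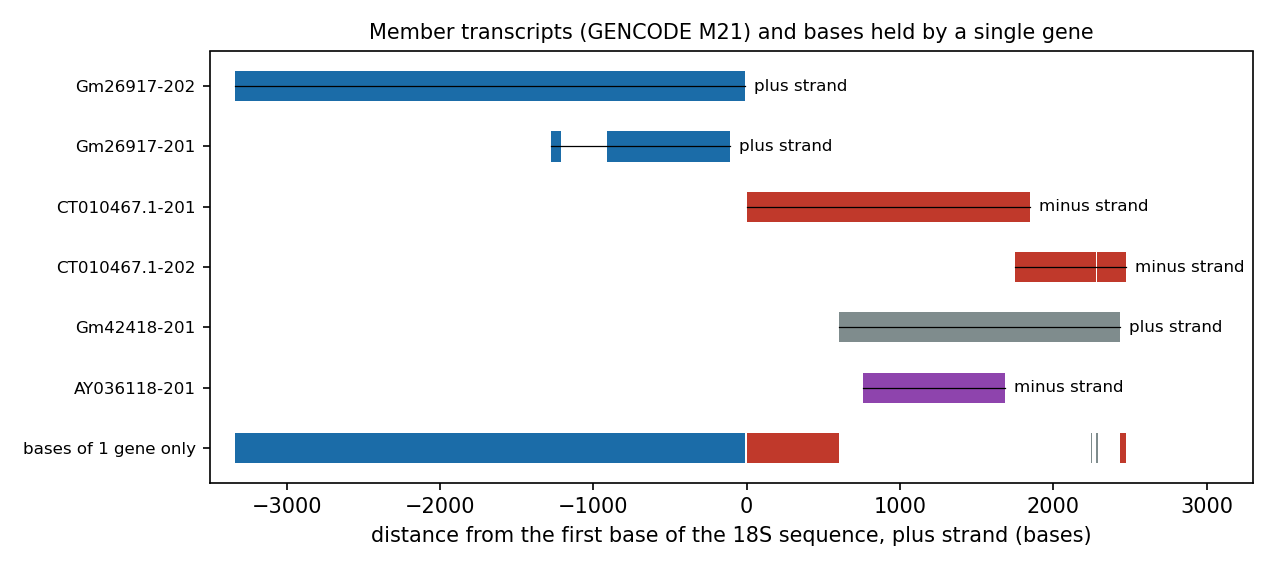
Exons of the 6 transcripts of the 4 genes, placed by distance in bases from the first base of the 18S sequence (x axis), with the strand beside each. The bottom row keeps only bases that belong to 1 of the 4 genes: all 3329 bases of Gm26917 and 644 bases of CT010467.1 remain, against 9 of Gm42418 and 0 of AY036118.

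Reads were counted without strand, per the labels. A read over bases held by 2 genes is then ambiguous under the usual setting of the counting program, and which setting was used is not given in the sources used here. Gm42418 and AY036118 had 0 counts in all 12 libraries. A count of 0 allows up to 3 counts, a level of 0.193 to 1.26 CPM (counts scaled to a common library size with TMM factors, the unit of all levels below) depending on the library. This limit covers counting error of assigned reads only, and says nothing about RNA from bases that 2 or more genes share. Under the usual setting and with the M21 annotation, the counts of CT010467.1 would be reads of either strand over its 644 bases. Since strand was not used, 18S rRNA and its complement cannot be told apart. No other annotated gene had a transcript at least 97% identical to a member over 100 bases or more. Reads of the many ribosomal DNA copies elsewhere in the genome were not analysed here, so the locus that made a read of Gm26917 or CT010467.1 is not known.

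The sequences of the members are rich in G and C. Gm26917 has 69.1% G and C in its long transcript, higher than 99.88% of 46508 annotated genes with a transcript of at least 300 bases. The value was 60.2% for Gm42418, 55.4% for the long transcript of CT010467.1 and 54.4% for AY036118. Folded in windows of 300 bases, Gm26917 had a median minimum free energy of -139.1 kcal/mol with a median of 67.3% of bases paired over 61 windows. The 18S sequence had -107.5 kcal/mol with 64.0% paired over 31 windows. Both mitochondrial rRNAs folded more weakly, at -48.0 kcal/mol with 50.0% paired for mt-Rnr1 (12S) and -54.8 kcal/mol with 50.7% paired for mt-Rnr2 (16S). Malat1, an abundant nuclear non-coding RNA, stood between them at -77.5 kcal/mol. The longest uninterrupted helix was 12 base pairs in Gm26917, 14 in 18S, 10 in mt-Rnr1, 12 in mt-Rnr2 and 13 in Malat1. These are predictions for naked RNA within a window, and no measurement of structure was made.

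Before the levels, 4 features of the libraries bear on every value. Input libraries held 10307281 to 11474107 counts assigned to genes, control pulldowns 13308021 to 16139531 and DKO pulldowns 2220291 to 5826361. In DKO, animal 2 had the shallowest library with each antibody. The summed CPM of 12 markers of fibroblasts, endothelium, muscle and glia was 3.27 to 8.13 in input, 4.32 to 41.8 in control pulldowns and 33.8 to 194 in DKO pulldowns, led by the collagen gene Col1a1. Endothelial Kdr was at 0 in 8 of 12 libraries and Cdh5 in 7. Pecam1, also endothelial, had counts in all 12, at 1.02 to 2.08 CPM in input. It reached 10.4 CPM in J2 DKO and 3.79 CPM in K1 DKO, both in animal 2. Epithelial markers were present in every library, 12 of 12. Their summed CPM was 11495 to 13521 in input and 9738 to 14959 in control pulldowns. In DKO animals 1 and 2 it was 16246 and 4459 with J2 and 19937 and 8528 with K1. The summed CPM of 10 leukocyte markers with counts was 37.7 to 77.7 over the 12 libraries. The part of these features in the results for the members was not tested. In the input of control animals Kat2b had 359 and 343 counts, against 118 and 114 in DKO input. Kat2a had 222 and 228 against 84 and 148. These are bulk samples, so fewer cells of a type and less RNA per cell cannot be told apart.

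Gm26917, which covers the spacer side of the locus, was the gene with the most counts in every input library. It took 3.19% and 3.72% of gene-assigned counts in the 2 control input libraries and 8.26% and 7.85% in the 2 DKO ones. In DKO pulldowns it took 11.4% and 11.6% with J2 and 6.74% and 8.82% with K1. In control pulldowns its share was 0.820% and 0.533% with J2 and 0.352% and 0.279% with K1. Every control pulldown thus lay below every input library, and every DKO pulldown lay above the control input libraries. By count it ranked 1 in all input and J2 DKO libraries and 1 and 2 in the K1 DKO libraries. In control it ranked 2 and 10 with J2 and 15 and 17 with K1. Since the other members added little, the 4 genes together took 3.46% ± 0.381 of counts in control input (SD, n = 2, as for all ± values here) and 8.06% ± 0.296 in DKO input. Of all reads listed, those not assigned to a gene included, the shares were 2.16% ± 0.255 and 5.02% ± 0.127. On that denominator they were 7.02% ± 1.02 in J2 DKO and 3.79% ± 0.50 in K1 DKO, against 11.5% ± 0.175 and 7.81% ± 1.49 of gene-assigned counts.

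Scaled to CPM with TMM factors, which set most genes equal between libraries, Gm26917 stood at 26841 and 31519 CPM in control input and at 80427 and 68729 CPM in DKO input. The groups did not overlap, and the mean log2 difference was 1.35 ± 0.229, or 2.56-fold. Among all genes tested in input, 36.1% were higher in both DKO libraries than in both control libraries. With J2 the levels were 9233 and 6210 CPM in control against 152400 and 88037 CPM in DKO, a 15.3-fold difference (log2 3.94 ± 0.691). With K1 they were 3658 and 2902 CPM in control against 82458 and 82509 CPM in DKO, a 25.3-fold difference (log2 4.66 ± 0.236). The DKO group lay wholly above control in both, as did 23.4% of the genes tested with J2 and 21.9% of those tested with K1. The edgeR fit gave log2 fold changes of 1.36 (SE 0.312) in input, 4.24 (SE 3.10) with J2 and 4.99 (SE 1.02) with K1.

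The mean levels of Gm26917 ran from J2 DKO (120218 ± 45512 CPM) through K1 DKO (82483 ± 36.2) and DKO input (74578 ± 8272) down to control input (29180 ± 3308), J2 control (7721 ± 2137) and K1 control (3280 ± 534). J2 DKO and K1 DKO differed by less than the larger SD of the pair, and so did K1 DKO and DKO input. The ranges of J2 DKO and K1 DKO did not overlap. The J2 DKO libraries of animals 1 and 2 had TMM factors of 0.747 and 1.32. Their shares of gene-assigned counts were close, at 11.4% and 11.6%, and both lay above those of K1 DKO, at 6.74% and 8.82%. Each lower step was larger than the SDs beside it.

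CT010467.1, the counted piece of the 18S sequence, behaved differently. In control input it had 100 and 198 counts (8.17 and 14.6 CPM), and in DKO input 51 and 73 counts (4.41 and 5.70 CPM), so DKO lay below control. The J2 libraries held 7 and 6 counts of it in control (0.513 and 0.525 CPM), against 56 and 152 counts in DKO (12.9 and 42.8 CPM). The K1 libraries held the most, with 247 and 600 counts in control (15.9 and 44.4 CPM) and 1063 and 1027 counts in DKO (234 and 433 CPM). The K1 DKO libraries lay above all others. It ranked 176 and 813 by count in the K1 DKO libraries of animals 2 and 1, and no better than 3142 in any other library.

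In input the mean log2 difference of CT010467.1 between DKO and control was -1.09 ± 0.633, on counts of at most 198, and the groups did not overlap. Of all genes tested in input, 36.9% lay wholly lower in DKO. Within J2 libraries CT010467.1 was 32.9-fold higher in DKO (log2 5.04 ± 1.21), and within K1 libraries 11.9-fold higher (log2 3.57 ± 1.21), again without overlap. Of all genes tested, 23.4% with J2 and 21.9% with K1 lay wholly higher in DKO. In the fit of the J2 libraries CT010467.1 passed the filter on low counts only through the DKO group, since the control libraries held 7 and 6 counts. The edgeR values were -1.17 (SE 0.312) in input, 6.04 (SE 0.844) with J2 and 3.82 (SE 0.606) with K1. Gm26917 and CT010467.1 thus went in opposite directions in input and in the same direction in both pulldowns.

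Ordered by mean level, CT010467.1 went from K1 DKO (333 ± 141 CPM) to K1 control (30.2 ± 20.2), J2 DKO (27.8 ± 21.1), control input (11.4 ± 4.55), DKO input (5.05 ± 0.908) and J2 control (0.519 ± 0.00842). K1 control and J2 DKO overlapped, and so did J2 DKO and control input. The other steps exceeded the larger SD of the pair.

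**Figure D2:**
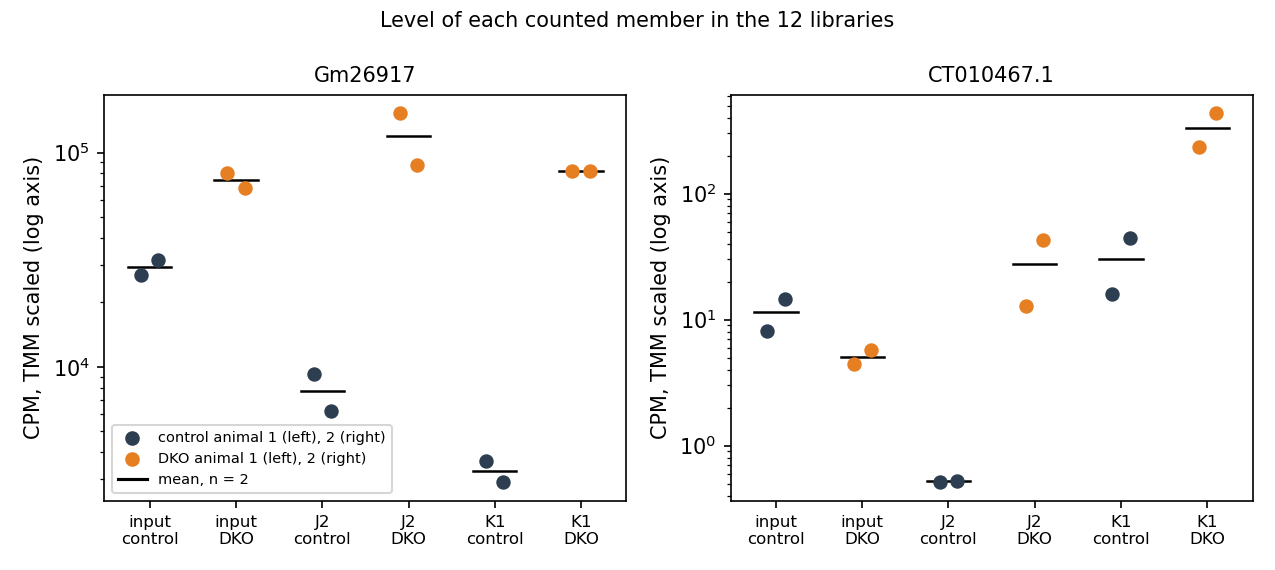
Level of Gm26917 and CT010467.1 in each library (points; y axis, TMM-scaled CPM on a log scale) in the 6 groups (x axis), with the mean of 2 libraries as a line. Gm26917 reached 68729 CPM or more in all DKO libraries and 9233 or less in control pulldowns, and CT010467.1 was highest in K1 DKO at 234 and 433 CPM.

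Per kilobase of sequence held by no other member in GENCODE M21, Gm26917 had 8063 and 9468 CPM in control input and CT010467.1 had 12.7 and 22.7. In DKO input the values were 24160 and 20645 against 6.85 and 8.85. The spacer-side sequence was thus far more abundant per length than the 18S piece in every input library, in libraries from which rRNA had been depleted. The ratio of Gm26917 counts to CT010467.1 counts was 3284 and 2158 in control input and 18226 and 12064 in DKO input. It was 17988 and 11826 in J2 control and 11842 and 2058 in J2 DKO. In the K1 libraries of control and DKO animals it was 230 and 65.3, and 353 and 191, lower than in any input or J2 library in both genotypes.

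The antibodies were then compared with the input of the same animal, as the difference of log2 CPM. In control, the J2 pulldown differed from input by -1.54 and -2.34 for Gm26917 in animals 1 and 2, a mean of -1.94 ± 0.568 and 3.84-fold lower. In DKO it was higher, by 0.92 and 0.36, a mean of 0.64 ± 0.399 and 1.56-fold. Between genotypes the enrichment by J2 differed by 2.58 ± 0.695. With K1, the differences of Gm26917 in control were -2.88 and -3.44, a mean of -3.16 ± 0.400 and 8.93-fold lower. In DKO the K1 pulldown stood at input level, with 0.04 and 0.26 and a mean of 0.15 ± 0.161, which turned to -0.05 (edgeR value) when libraries were scaled by their totals alone. The enrichment by K1 differed by 3.31 ± 0.431 between genotypes.

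For Gm26917 the pulldown lay wholly below input in control with both antibodies, as did 41.0% of genes with J2 and 36.8% with K1. It lay wholly above input in DKO, as did 20.1% of genes with J2 and 23.1% with K1, with K1 by a narrow margin. The edgeR values were -1.98 (SE 1.45) for J2 in control, 0.93 (SE 1.41) for J2 in DKO, -3.23 (SE 0.611) for K1 in control and 0.24 (SE 0.561) for K1 in DKO. The value for J2 in DKO was 0.51 with scaling by library totals and 0.47 without DKO animal 1. In DKO, where input itself held more Gm26917, the K1 pulldown thus differed from input by less than the SD over animals.

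For CT010467.1, J2 differed from input in control by -3.55 and -4.35, a mean of -3.95 ± 0.564 and 15.4-fold lower. In DKO it was higher in J2 by 1.5 and 2.87, a mean of 2.18 ± 0.964 and 4.54-fold. With K1 it was higher than input in both genotypes. In control animals the difference was 0.94 and 1.59, a mean of 1.27 ± 0.458 and 2.41-fold. In DKO animals it was 5.66 and 6.20, a mean of 5.93 ± 0.377 and 61.0-fold. The enrichment thus differed between genotypes by 6.13 ± 1.12 with J2 and 4.66 ± 0.593 with K1. K1 in control lay wholly above input, as did 41.9% of genes. J2 in control rests on 7 and 6 counts of CT010467.1. Its counts are what rRNA depletion left. A difference in depletion between input and pulldown cannot be told apart from enrichment by the antibody, and was not tested.

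Set against all genes fitted, the edgeR difference of enrichment of CT010467.1 between genotypes, 7.18 (SE 0.879), ranked 10 of 15923 with J2, and 4.80 (SE 0.714) ranked 57 of 15908 with K1. Gm26917 ranked 401 with J2, at 2.91 (SE 2.01), and 210 with K1, at 3.47 (SE 0.816). The median of all genes was 0.00 with J2 and -0.20 with K1. The choice of members used the contrasts behind these ranks, so the ranks only describe them.

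**Figure D3:**
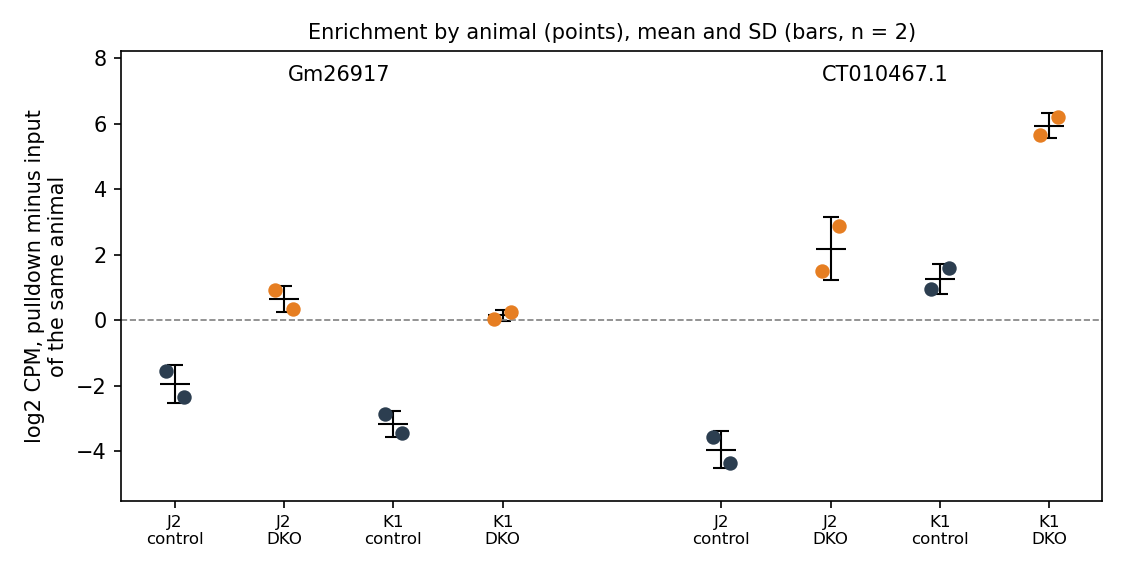
Difference of log2 CPM between pulldown and input of the same animal (y axis) for Gm26917 and CT010467.1, by antibody and genotype (x axis); points are animals, bars the mean and SD over 2 animals. Gm26917 moves from -1.94 to 0.64 with J2 and from -3.16 to 0.15 with K1 between control and DKO, and CT010467.1 from -3.95 to 2.18 and from 1.27 to 5.93.

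The levels at this locus also differed between the pulldowns with the 2 antibodies. In control, the log2 difference of K1 minus J2 for Gm26917 was -1.34 and -1.10, a mean of -1.22 ± 0.168. In DKO the differences were -0.89 and -0.09, a mean of -0.49 ± 0.560, less than its SD. CT010467.1 was 37.2-fold higher with K1 in control, with log2 differences of 4.50 and 5.94 and a mean of 5.22 ± 1.02. The J2 control libraries held 7 and 6 counts of it, so the size of this difference is imprecise. In DKO it was 13.4-fold higher, with 4.16 and 3.33 and a mean of 3.75 ± 0.587. The 18S piece was higher with K1 in all 4 animals. Gm26917 was lower with K1 in all 4, in DKO animal 2 by a small margin. The share of all genes that went either way in all 4 animals was not computed.

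Reads that no gene received moved with the same libraries. Those aligned to several places were 6.97% to 8.05% of listed reads in the 4 input libraries, 5.54% and 5.98% in J2 control and 6.02% and 6.56% in K1 control. They were 15.8% and 29.5% in J2 DKO and 25.9% and 46.7% in K1 DKO, so all 4 DKO pulldowns lay above the other 8 libraries. Ambiguous reads, the class that would hold reads over the shared bases of CT010467.1, Gm42418 and AY036118, were 3.65% to 5.01% outside the DKO pulldowns and 5.38% to 6.11% in them. The files do not say where such reads lie, and their part in the results for the members was not tested.

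**Figure D4:**
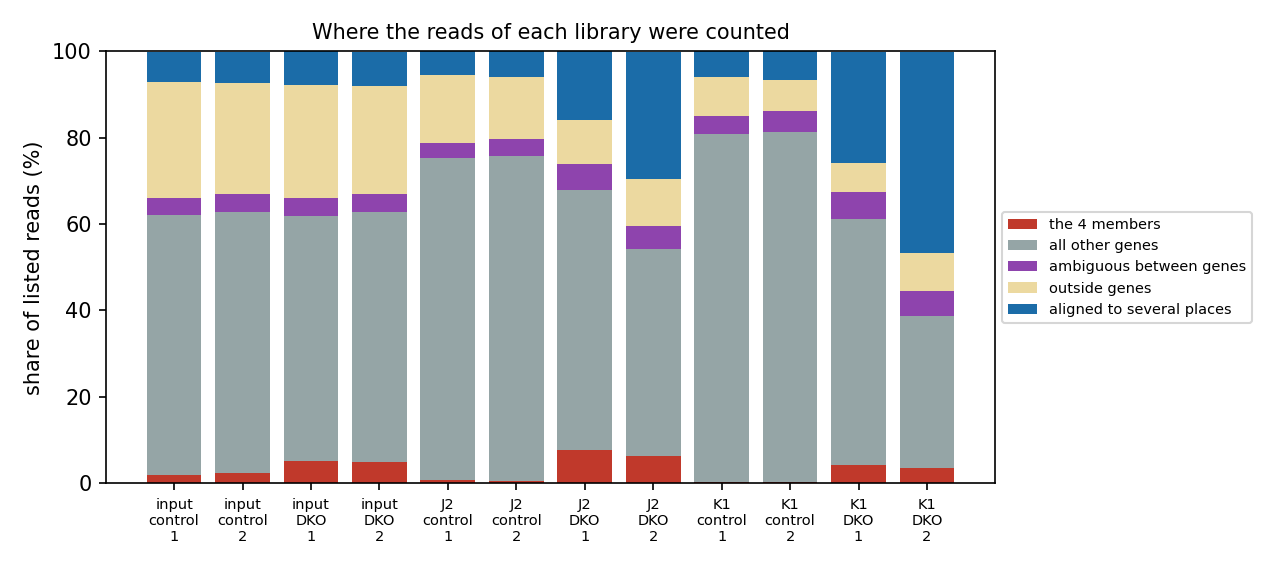
Share of listed reads (y axis, %) in each of the 12 libraries (x axis) that went to the 4 members, to all other genes, to several genes at once, outside genes or to several places. Reads aligned to several places take 15.8% to 46.7% in the 4 DKO pulldowns and 8.05% or less elsewhere.

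Other genes of ribosomal RNA were looked at for comparison. GENCODE M21 annotates 353 further genes as rRNA. Of these, 95 had any count, and the highest count in a library was 21, for Gm24777. Their summed counts were 143 and 151 in control input, 164 and 173 in DKO input, 45 and 29 in J2 control, 2 and 3 in J2 DKO, 14 and 9 in K1 control and 1 and 3 in K1 DKO. Scaled for depth, they summed to 11.1 to 14.2 CPM in input and to 3.30 CPM or less in every pulldown. Counts of 14 or fewer in the K1 and J2 DKO libraries leave no order among these. The mitochondrial 16S rRNA gene mt-Rnr2 had 97 and 197 counts in control input and 57 and 88 in DKO input. It had 9278 and 11628 in J2 control, 62730 and 18221 in J2 DKO, 8252 and 7365 in K1 control and 32413 and 27208 in K1 DKO. In contrast to Gm26917, it was far above input in the pulldowns of both genotypes. As a share of gene-assigned counts it took 0.0739% ± 0.0191 in J2 control and 0.877% ± 0.283 in J2 DKO. With K1 it took 0.0518% ± 0.000952 in control and 0.904% ± 0.454 in DKO. Like Gm26917 and CT010467.1, mt-Rnr2 was thus higher in DKO than in control pulldowns.

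Genes with the most similar pattern were sought over the 12 libraries, by the root mean square (RMS) difference of log2 CPM after centring each gene, among 9740 genes. For Gm26917 they were Sh3bp5 (0.639), Gabbr1 (0.652) and Ifit3b (0.703), which are protein-coding. They differed from it in control input, where centred Gm26917 stood at -0.07 and 0.16. There Sh3bp5 stood at -1.02 and -0.69, Gabbr1 at -0.65 and -0.52 and Ifit3b at -1.06 and -1.43. Ifit3b belongs to the genes induced by interferon, and Gabbr1 encodes a subunit of the GABA-B receptor. For CT010467.1 they were Rn7s2 (1.34), Rn7s6 (1.38) and Rn7s1 (1.43), which are copies of 7SL, the RNA of the signal recognition particle. CT010467.1 had no gene as near to it as Gm26917 had. In K1 control it stood at 0.17 and 1.64 after centring, against -1.43 and -0.61 for Rn7s2. The 7SL copies are nearly identical to each other, so reads may be split between them and they are not separate observations.

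The genes that make, cut and degrade rRNA were examined in input, where DKO and control can be compared without the antibody. They were taken from 4 lists, none of which holds a member. Over all genes, 35.9% of 15088 passed the edgeR quasi-likelihood test at an adjusted p of 0.05 (Benjamini-Hochberg over all genes), 18.8% higher and 17.1% lower in DKO, with a median log2 fold change of -0.00. Of 16 genes of RNA polymerase I and its factors, 2 rose and 1 fell (median 0.12). Of 47 genes tested among 48 listed for the small subunit, 4 rose and 0 fell (median 0.05; 8 had an unadjusted p under 0.05). Of 39 tested among 40 for the large subunit, 3 rose and 0 fell (median 0.18; 8 at the unadjusted p). Of 18 tested among 19 genes of the nuclear exosome and related decay, 1 rose and 0 fell (median -0.02; 3 at the unadjusted p). In each list the share that passed was below that over all genes.

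In the polymerase I list the gene that fell was Ubtf, which encodes the factor UBF that binds ribosomal DNA along its length. It stood at 70.3 and 70.0 CPM in control and 52.2 and 46.4 CPM in DKO (log2 fold change -0.50, SE 0.123, edgeR adjusted p 0.0167). Taf1c, a subunit of the promoter factor SL1, rose from 11.6 and 11.7 CPM to 16.7 and 17.2 CPM (0.55, SE 0.155, edgeR adjusted p 0.0288). Taf1b, another SL1 subunit with few counts, rose from 1.72 and 1.70 CPM to 5.97 and 6.71 CPM (1.89, SE 0.255, edgeR adjusted p 0.00147). It is named because it completes the list's 3 calls, after its values were seen. The catalytic subunit gene Polr1a did not pass, at 25.99 and 25.2 CPM in control and 23.6 and 36.8 CPM in DKO (edgeR adjusted p 0.374). Nor did Rrn3, the factor that brings polymerase I to the promoter, at 27.8 and 25.1 CPM against 25.96 and 39.0 CPM (edgeR adjusted p 0.252).

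Among the small-subunit genes, Utp4 and Pwp2, which encode parts of the complex that assembles on the spacer and 18S precursor, rose by log2 fold changes of 0.87 (SE 0.170, edgeR adjusted p 0.00670) and 0.66 (SE 0.197, edgeR adjusted p 0.0352). Utp4 stood at 11.1 and 10.6 CPM in control and 17.7 and 21.9 CPM in DKO. Bysl and Riok1, needed for late steps of the small subunit, rose by 0.84 (edgeR adjusted p 0.0223) and 0.51 (edgeR adjusted p 0.0445). Fbl, which encodes the methyltransferase fibrillarin, did not pass, at 27.6 and 29.2 CPM in control and 13.8 and 23.3 CPM in DKO (log2 fold change -0.61, edgeR adjusted p 0.0704).

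Among the large-subunit genes, the assembly factor gene Gtpbp4 rose from 13.0 and 12.5 CPM to 18.3 and 24.7 CPM (0.76, SE 0.182, edgeR adjusted p 0.0156). Nip7 and Bop1, which take part in processing the large-subunit precursor, rose by 0.65 (edgeR adjusted p 0.0308) and 0.38 (edgeR adjusted p 0.0452). The abundant nucleolar proteins nucleolin (Ncl) and nucleophosmin (Npm1) gave log2 fold changes of -0.14 and -0.01 and did not pass (edgeR adjusted p 0.651 and 0.987). In DKO input their levels lay on both sides of control, with 62.8 and 116 CPM of Npm1 against 93.7 and 86.4 CPM. Of the decay list, Rbm7, part of the nuclear exosome targeting complex, rose from 22.1 and 22.9 CPM to 33.8 and 30.6 CPM (0.52, SE 0.130, edgeR adjusted p 0.0184). Exosc10, a nuclease of the nuclear exosome, and Xrn2, a nuclear exonuclease that degrades spacer fragments, gave 0.36 and 0.23 and did not pass (edgeR adjusted p 0.0998 and 0.151).

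These results depended on single animals. Without DKO animal 1 the median log2 fold change was 0.23 for the small-subunit and 0.38 for the large-subunit list, against -0.01 over all genes. Without DKO animal 2 it was -0.19 and -0.09, against -0.02 over all genes. With all 12 libraries in 1 fit the edgeR test called 1 gene in the polymerase I list and 0 in the other lists. In that fit 4, 0 and 0 genes of the small-subunit, large-subunit and exosome lists had an unadjusted edgeR p under 0.05. The share of all genes called in that fit is not given here.

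**Figure D5:**
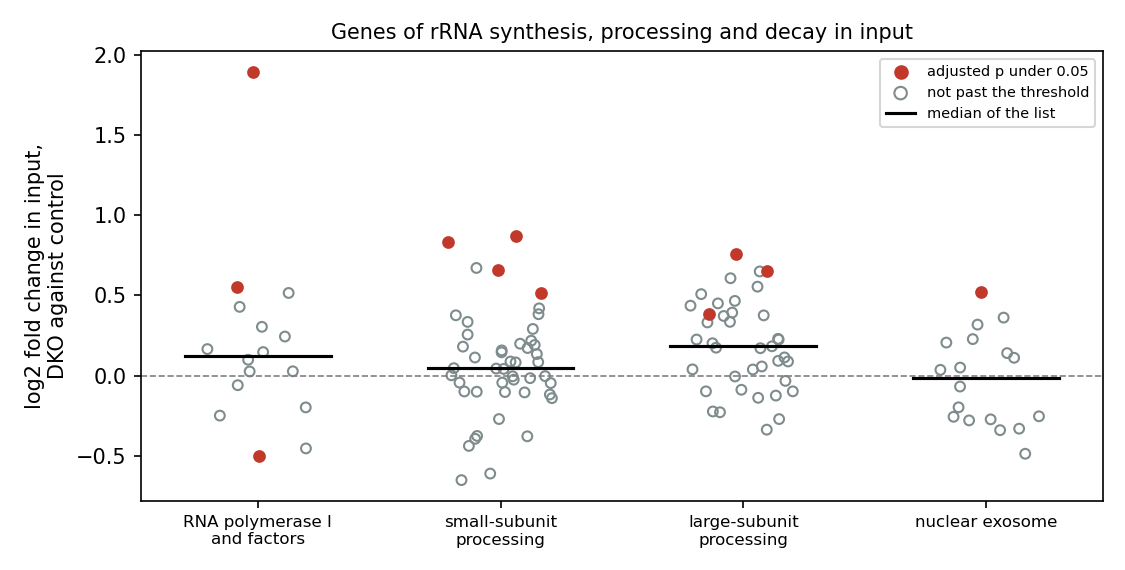
Log2 fold change of each tested gene in input, DKO against control (y axis), for the 4 lists (x axis); filled points passed an adjusted p of 0.05 and lines are the list medians of 0.12, 0.05, 0.18 and -0.02. Most genes lie near 0, with Taf1b at 1.89 the highest.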

How the data were processed

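Per the labels, each library was primed with random hexamers, depleted of rRNA with a strand-specific kit carrying molecular identifiers, and sequenced as pairs of 150 bp. The authors deposited 1 table of read counts per library, whole numbers for each gene, made without strand per the labels. The submitters' processing notes name STAR 2.7.10b, SAMtools 1.17, UMI-tools 1.1.4, HTSeq 2.0.2, DESeq2 1.40.1, edgeR 3.42.2 and the builds mm10 and GRCm38.p4. The annotation, the counting mode and whether identifiers were collapsed are not given in the sources used here. Without collapsing, floors understate the error. Of 48526 gene identifiers in the count tables, 48144 matched GENCODE M21 without version and 40692 with it. The overlaps between members in the annotation used for counting may therefore differ from those shown here. The closing rows (reads outside genes, ambiguous, aligned to several places) are 18.7% to 61.2% of listed reads and entered neither library sizes nor tests.

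The members and gene lists were chosen with earlier results of these data known. CPM and log2 CPM (prior count 2) used TMM scaling in edgeR 4.0.16 (R 4.3.3). DKO was compared with control in fits of 4 libraries (2 residual degrees of freedom), and pulldown with input in fits of 8 (4 residual degrees of freedom), after filterByExpr with a count minimum of 10. List genes were tested with edgeR's quasi-likelihood test. The SE beside an edgeR value is the absolute log2 value divided by the square root of the F statistic of that test. Of each list, the 4 called genes with the largest change, a mean of at least 50 counts and no overlap are named, besides 8 fixed genes. Likeness used genes with a mean of at least 50 counts over the 12 libraries. Folding used RNAfold 2.7.2 (windows of 300 bases, step 50) and similarity blastn 2.17.0+. DESeq2 1.42.0 was an alternative. The edgeR script was tested on simulated data.

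Replicate numbers pair input, J2 and K1 libraries of the same animal, per the animal codes in the labels. Deviations from group means correlated at r = 0.373 to 0.567 between input and pulldown of the same animal. Between control and DKO input the numbers name different animals (r = 0.0386). Replicates differed beyond sampling noise in each group (chi-square per degree of freedom 15.7 or higher). Nothing says that litters or days were shared.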

Additional observations from a re-analysis of the deposited data

Results flagged for a closer look

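With J2, Gm26917 and CT010467.1 lay below input in both control animals and above it in both DKO animals. The log2 difference from input of Gm26917 was -1.54 and -2.34 in the control animals and 0.922 and 0.357 in the DKO animals. For CT010467.1 it was -3.55 and -4.35 in the control animals, against 1.5 and 2.87 in the DKO animals. With K1, Gm26917 had -2.88 and -3.44 in the control animals and stood at or just above input in the DKO animals, at 0.036 and 0.264. CT010467.1 was above input with K1 in all 4 animals. The difference between genotypes was not tested, since these values chose the genes.

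Reads aligned to several places, which enter no comparison of genes, were higher in the DKO pulldowns than in any control library. They were 15.8% and 29.5% of listed reads in J2 DKO and 25.9% and 46.7% in K1 DKO.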

How the results depend on the processing

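Over 18 comparisons of Gm26917 and CT010467.1, 181 of 182 values under other settings kept their direction. Of these, 4 moved by more than the SD between replicates: Gm26917 in J2 against input in DKO went from 0.93 to 0.51 with library totals and to 0.47 without DKO replicate 1, Gm26917 in DKO against control within K1 from 4.99 to 4.63 with library totals, and CT010467.1 in J2 against input in control from -4.49 to -5.16 with thinning. The 1 value that changed direction was Gm26917 in K1 against input in DKO, which went from 0.24 to -0.051 with scaling by library totals; the summed members went from 0.16 to -0.057. Without DKO replicate 1 that summed value was 0.46, so leaving out animals gave 0.040 to 0.46. The summed members in DKO against control within K1 went from 4.65 to 4.99 with DESeq2 size factors and to 4.97 with libraries thinned to the shallowest. Leaving out animals kept the difference of enrichment of the summed members between 2.18 and 2.98 with J2 and between 3.03 and 3.65 with K1. With the animal as replicate block, CT010467.1 in K1 against input in DKO was 6.09 against 6.14 without, and no member changed direction. With the replicate number as block the lists had 3 (polymerase I), 4 (small subunit), 4 (large subunit) and 1 (exosome) genes called; these numbers do not pair animals. Calls of the polymerase I list went from 3 to 1 with all 12 libraries in 1 fit, and to 1 to 6 when animals were left out. Small-subunit calls went from 4 to 2 with library totals, 2 with thinning, 2 with DESeq2 and 0 with all 12 libraries, and to 1 to 12 without an animal. Large-subunit calls went from 3 to 5 with DESeq2 size factors, 5 without a filter, 1 with DESeq2, 0 with library totals (2 at an unadjusted p under 0.05) and 0 with all 12 libraries, and to 0 to 14 without an animal. The exosome call went to 0 with library totals, thinning, DESeq2 and all 12 libraries (4, 2, 1 and 0 at the unadjusted p), and to 0 to 4 without an animal. Fits without an animal assume that the lone library varies like the other group. The share of all genes called under these other settings is not given here, so changes in the number of calls may not be particular to the lists. Library totals moved the median of all genes in input to -0.13. With 2 animals a group and 6 to 7 counts of CT010467.1 in J2 control, the size of its change with J2 is imprecise.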
